A study of Homo sapiens with 8 samples.

Results

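Microtubules are hollow polymers of alpha- and beta-tubulin dimers, and vertebrate genomes carry several genes, called isotypes, for each subunit. The genes described here are 10 human tubulin isotypes expressed in MEG-01 cells, taken by gene symbol from the 60754 genes of the deposited tables: 6 beta-tubulin genes (TUBB1, TUBB, TUBB2A, TUBB3, TUBB4B and TUBB6) and 4 alpha-tubulin genes (TUBA1A, TUBA1B, TUBA1C and TUBA4A). All 10 passed the filter on low counts, which left 17314 genes for testing. Together they held 99.3% to 99.5% of the TPM (a level per transcript length and per library) assigned to 58 alpha- and beta-tubulin gene and pseudogene symbols in each library.

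MEG-01 is an established human megakaryoblastic leukaemia line, and its messenger RNA was sequenced in 4 groups of 2 libraries. The groups were untreated cells, cells given phorbol 12-myristate 13-acetate (PMA) at 100 nM for 48 h, cells given the same PMA with Ceefourin 2 at 20 µM for 48 h, and cells given Ceefourin 2 without PMA for 48 h, for which the labels give no dose of its own. PMA, a phorbol ester, switches on protein kinase C and is widely used to push such lines towards megakaryocytes, and Ceefourin 2 inhibits ABCC4, a membrane transporter that exports cyclic nucleotides and nucleotide analogues. No vehicle control is named, all groups are the same line, and nothing in the labels says that the 2 libraries of a group came from separate cultures, so p-values measure the spread between these libraries, which may be technical.

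Megakaryocytes make platelets by extending long microtubule-filled processes, the proplatelets, which elongate as dynein slides microtubules past each other, and the resting platelet keeps its disc shape by a coiled microtubule ring, the marginal band. TUBB1 encodes the beta-tubulin that is largely restricted to megakaryocytes and platelets. TUBB and TUBA1B are the broadly expressed isotypes of dividing cells, and TUBB3 is best known as a neuronal tubulin. Tubulin messages are also under autoregulation: when free dimers are abundant, TTC5 recognises the nascent tubulin chain as it leaves the ribosome, and the CCR4-NOT complex degrades the message.

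The recognised stretch is encoded by the first 4 codons, which are shown in capitals at the head of the first 24 coding bases (GENCODE release 29 transcripts on GRCh38, 5′ to 3′) because every isotype carries them whatever its response.
TUBB1: ATGCGTGAAATTgtccatattcag
TUBB: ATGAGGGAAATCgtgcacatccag
TUBB3: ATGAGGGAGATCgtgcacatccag
TUBA1B: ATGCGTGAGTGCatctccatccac
TUBA4A: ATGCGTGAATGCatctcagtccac
TUBA1A and TUBA1C had the same 24 bases as TUBA1B. Beta isotypes are known to differ most at their 3′ coding ends, which encode the acidic tails on the microtubule surface. The last 60 coding bases before the stop codon are shown for the leading beta isotype and the 2 with the largest differences, with the final codon in capitals.
TUBB1: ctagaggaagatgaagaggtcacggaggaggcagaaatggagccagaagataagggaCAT
TUBB: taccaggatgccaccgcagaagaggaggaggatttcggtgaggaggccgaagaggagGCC
TUBB3: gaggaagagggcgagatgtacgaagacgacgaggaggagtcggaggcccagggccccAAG

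Over the whole coding sequence TUBB1 was the most divergent beta isotype, with 74.4% to 76.2% identical bases against the other 5, compared with 80.9% to 87.8% between those 5. TUBA1A, TUBA1B and TUBA1C were 95.9% to 97.2% identical, so reads can match more than 1 of them and their separate values depend on how RSEM divided such reads. TUBA1A and TUBA1C also overlap on opposite strands of chromosome 12, which the stranded libraries can tell apart only if strand was used in counting. TUBB3 overlaps a further annotated gene, AC092143.1, on its own strand.

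Total expected counts ran from 44430292 to 89950886 per library. Mitochondrially encoded transcripts took 2.55% to 3.94% of counts without PMA and 4.53% to 9.61% with PMA, highest in replicate 1 of both PMA groups. The 18 megakaryocyte and platelet markers summed to 747 to 752 TPM in untreated libraries and 1752 to 1916 TPM with PMA, and all 16 that could be tested rose. Their sum was 1916 to 1944 TPM with both agents and 854 to 937 TPM with Ceefourin 2. The 13 erythroid markers summed to 9824 to 10840 TPM untreated and 32307 to 39520.5 TPM with PMA. They summed to 26608 to 34315 TPM with both agents and 4745 to 5144 TPM with Ceefourin 2. Although the sum was higher with PMA than untreated, 9 of the 13 fell and 4 rose (median -1.56). Lymphoid markers summed to 2.36 TPM at most. The 6 fibroblast markers summed to 1.28 to 1.47 TPM untreated, 9.48 to 14.7 TPM with PMA, 16.2 to 18.8 TPM with both agents and 0.55 to 1.13 TPM with Ceefourin 2. In the libraries with PMA, though not in the others, most of this was COL1A1, a collagen chain (0.12 TPM untreated, 8.85 and 14.6 TPM with PMA). Of the 3 fibroblast markers that could be tested 1 rose and 1 fell with PMA. The 9 monocyte and macrophage markers summed to 220 to 221 TPM untreated and 422 to 470.5 TPM with PMA, and of 7 tested 4 rose and 2 fell. CD68, a lysosomal protein, made up most of that sum (mean 164 TPM untreated and 416 TPM with PMA), while ITGAM, an integrin chain, fell (20.4 to 0.95 TPM) and so did LYZ, lysozyme (35.1 to 21.8 TPM).

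In untreated cells the tubulin pool was dominated by a few isotypes. TUBA1B (ENSG00000123416.15, GRCh38 chromosome 12, 49127782 to 49131397, minus strand) stood at 2004 and 1859 TPM in replicates 1 and 2. Identifiers are those of the deposited tables, and positions are those of GENCODE release 29, in which some of these genes carry an earlier identifier version. TUBB (ENSG00000196230.13, chromosome 6, 30720201 to 30725426, plus strand) followed at 1566 and 1407 TPM. TUBA1C (ENSG00000167553.15, chromosome 12, 49188736 to 49274603, plus strand) stood at 940 and 859 TPM, so that these 3 genes and then TUBB4B and TUBA4A formed an order without overlap between neighbours. TUBB4B (ENSG00000188229.6, chromosome 9, 137241213 to 137243707, plus strand), a widely expressed isotype also used in cilia, had 290 and 244 TPM. TUBA4A (ENSG00000127824.14, chromosome 2, 219249711 to 219278170, minus strand), an alpha isotype that is abundant in platelets, had 132 and 102 TPM. Below them TUBB6 and TUBA1A overlapped, and TUBB3 and TUBB1 were near the bottom at about 1 TPM or less.

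**Figure D1:**
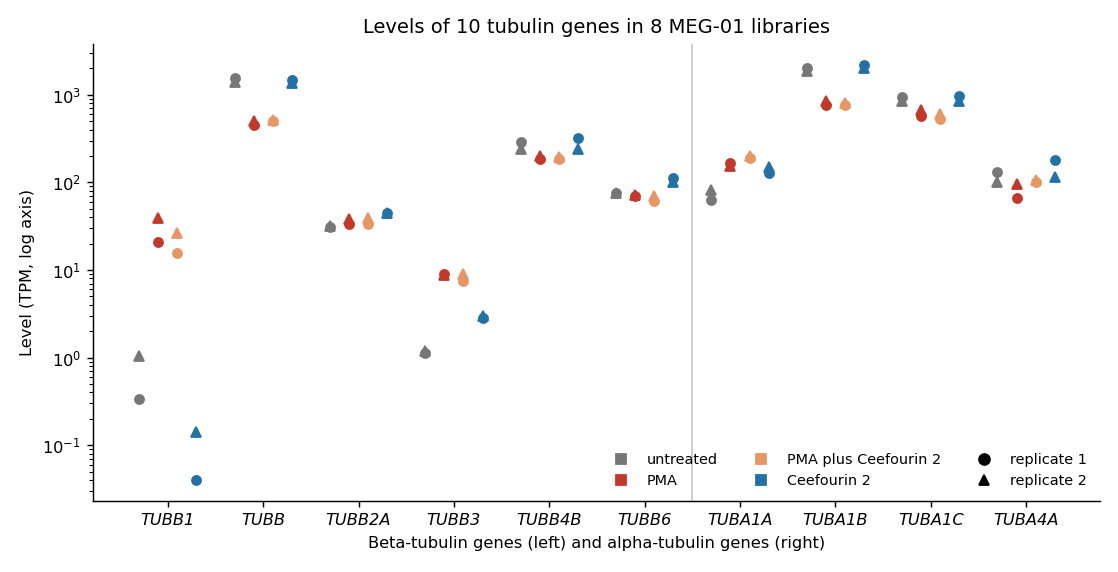
TPM (log axis) of the 10 tubulin genes in 8 libraries, coloured by group, with circles for replicate 1 and triangles for replicate 2. TUBB1 lies between 0.04 and 1.04 TPM without PMA and between 15.5 and 39.0 TPM with it, whereas TUBB and TUBA1B are lower with PMA.

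PMA changed the mix of isotypes. Of the 10 genes, 4 rose against untreated cells (TUBB1, TUBB3, TUBA1A and TUBB2A) and 2 fell (TUBB and TUBA1B), in edgeR's quasi-likelihood test at a Benjamini-Hochberg adjusted p below 0.05. PMA called 53.6% of all tested genes, 27.9% higher and 25.7% lower, so a count of 6 of 10 is near the background. TUBB1 and TUBB3 had the largest log2 differences of the 10, at 5.61 and 3.43, beside a median of -0.02 over the 10 and of -0.002 over all genes tested. Without scaling factors the calls over all genes split into 3832 higher and 5933 lower instead of 4838 and 4443, the median gene shifted by -0.19, and the tubulin calls became 3 higher and 4 lower. With both replicate 1 libraries that had PMA left out, 4 again rose and 2 fell.

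TUBB1 (ENSG00000101162.3, chromosome 20, 59019254 to 59026654, plus strand) was almost silent before treatment. Its level was 0.831 and 2.76 CPM (counts scaled to library size by TMM) in untreated libraries, from 40 and 169 counts. With PMA it reached 62.6 and 118 CPM, from 3691 and 5454 counts. Both PMA libraries were far above both untreated libraries, and replicate 1 was lower than replicate 2 in every one of the 4 groups. The difference was 5.61 (SE 0.60, 95% interval 4.22 to 6.99, edgeR adjusted p = 0.000154), or 48.8-fold. Its size moved with single libraries, being 5.04 without untreated replicate 1, 6.77 without untreated replicate 2 and 5.09 without PMA replicate 2, and all of these were called.

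TUBB3 (ENSG00000258947.7, chromosome 16, 89921392 to 89938761, plus strand) had 0.992 and 1.18 CPM untreated and 12.3 and 11.5 CPM with PMA. Both PMA libraries were above both untreated ones, and the difference was 3.43 (SE 0.23, edgeR adjusted p = 1.57e-05), or 10.8-fold. Even so it remained a minor isotype, at 9.12 and 8.88 TPM with PMA. Of 9 neuronal markers only 4 passed the filter, of which 3 rose and 1 fell. Their sum was 1.59 and 1.64 TPM untreated and 12.7 and 10.2 TPM with PMA, mostly MAP2, while RBFOX3, SNAP25 and DCX were listed at 0 in all 8 libraries.

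TUBA1A (ENSG00000167552.14, chromosome 12, 49184796 to 49189324, minus strand), an alpha isotype prominent in neurons, had 58.3 and 82.9 CPM untreated and 197 and 181 CPM with PMA, without overlap. The difference was 1.42 (SE 0.17, edgeR adjusted p = 0.000286). TUBB2A (ENSG00000137267.6, chromosome 6, 3153669 to 3157526, minus strand) rose far less, from 31.7 and 35.5 CPM to 42.6 and 48.1 CPM. That difference of 0.43 (SE 0.13, edgeR adjusted p = 0.0208) was no longer called without untreated replicate 1 (adjusted p = 0.0967), without PMA replicate 2 (0.123), without scaling factors (0.126) or with limma on log2(TPM + 1) (0.19, adjusted p = 0.160).

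The 2 isotypes that fell were the leading ones of each family. TUBB went from 2687 and 2628 CPM untreated to 964 and 1066 CPM with PMA, a change of -1.39 (SE 0.09, edgeR adjusted p = 1.20e-05), or 2.62-fold lower. TUBA1B went from 2113 and 2135 CPM to 1007 and 1097 CPM, a change of -1.01 (SE 0.09, edgeR adjusted p = 5.42e-05), or 2.02-fold lower. The PMA libraries lay below the untreated ones for both genes, and every setting tried kept both calls.

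The other 4 isotypes did not pass the test. TUBB4B differed by -0.21 (95% interval -0.50 to 0.08, edgeR adjusted p = 0.195) and TUBA4A by -0.28 (interval -0.77 to 0.22, adjusted p = 0.313). TUBA1C differed by -0.27 (edgeR adjusted p = 0.0768), which was called in the fit with a replicate block (-0.27, adjusted p = 0.0319), without scaling factors (-0.45, adjusted p = 0.0114), without a filter (-0.26, adjusted p = 0.0373) and with limma on log2(TPM + 1) (-0.53, adjusted p = 0.00822). TUBB4B was called without scaling factors (-0.39, adjusted p = 0.0352) and with limma on log2(TPM + 1) (-0.46, adjusted p = 0.0317). TUBB6 (ENSG00000176014.12, chromosome 18, 12307669 to 12344320, plus strand), a beta isotype of many non-neuronal cells, differed by 0.16 (edgeR adjusted p = 0.159) and by -0.025 without scaling factors, so its direction depended on the scaling.

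**Figure D2:**
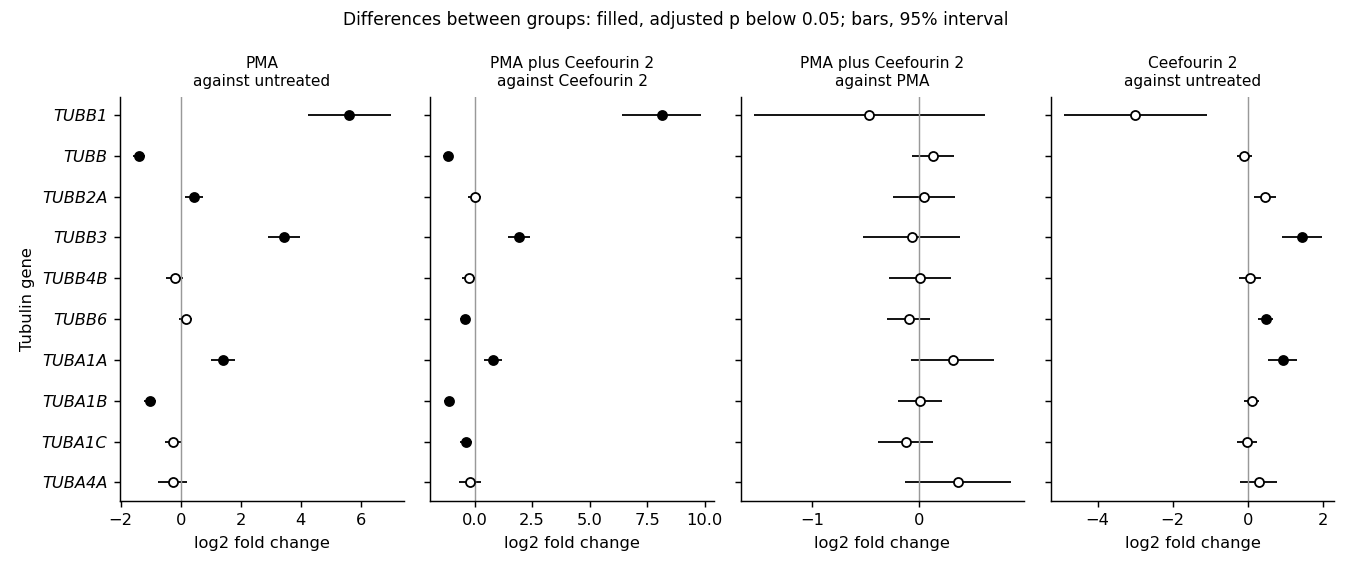
Log2 fold changes of the 10 tubulin genes in 4 comparisons, each panel on its own axis, with 95% intervals; filled points have an adjusted p below 0.05. TUBB1 has the largest difference in both PMA comparisons, 5.61 and 8.13, and no gene is filled for PMA plus Ceefourin 2 against PMA.

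PMA effects in the presence of Ceefourin 2 come from 4 other libraries. Against Ceefourin 2 alone, PMA plus Ceefourin 2 called 53.5% of all tested genes, 28% higher and 25.6% lower, and 7 of the 10 isotypes, 3 higher and 4 lower. TUBB1 went from 0.109 and 0.354 CPM, only 7 and 22 counts, to 46.7 and 83.5 CPM. This difference of 8.13 (SE 0.74, edgeR adjusted p = 7.00e-05) rests on very few counts in the Ceefourin 2 libraries, and was 7.50 without Ceefourin 2 replicate 1, 9.20 without Ceefourin 2 replicate 2 and 4.29 with limma on log2(TPM + 1). TUBB3 rose by 1.92 (SE 0.21, edgeR adjusted p = 0.000163) and TUBA1A by 0.79 (SE 0.17, adjusted p = 0.00488). TUBB fell by 1.17 (SE 0.09, edgeR adjusted p = 2.75e-05) and TUBA1B fell by 1.12 (SE 0.09, adjusted p = 3.69e-05).

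TUBB6 and TUBA1C were called here although they were not in the comparison without Ceefourin 2. TUBB6 stood at 132 and 121 CPM with Ceefourin 2 and at 89.1 and 99.6 CPM with both agents, a change of -0.42 (SE 0.09, edgeR adjusted p = 0.00433). Its call was lost when both replicate 1 libraries with PMA were left out (-0.34, adjusted p = 0.0693). TUBA1C changed by -0.37 (SE 0.11, edgeR adjusted p = 0.0231), a call lost without replicate 1 of PMA plus Ceefourin 2 (adjusted p = 0.145), without replicate 1 of Ceefourin 2 (0.0829) or without both replicate 1 libraries with PMA (0.114). With both replicate 1 libraries that had PMA left out, 5 isotypes were called. TUBB2A (0.002), TUBB4B (-0.26) and TUBA4A (-0.20) did not pass. TUBB4B was called without Ceefourin 2 replicate 2 (-0.43, adjusted p = 0.0189), without scaling factors (-0.47, adjusted p = 0.0163), without a filter (-0.28, adjusted p = 0.0367) and with limma on log2(TPM + 1) (-0.55, adjusted p = 0.0157). TUBB2A was called as lower with limma on log2(TPM + 1) (-0.29, adjusted p = 0.0442).

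The shares of the isotypes within each family do not depend on the scaling between libraries, since each is a ratio within a library. Summed alpha- and beta-tubulin was 5030 ± 331 TPM (SD, n = 4) in the libraries without PMA and 2492 ± 135 TPM (SD, n = 4) in those with PMA, with no overlap (two-sided exact permutation test over 70 arrangements, p = 0.0286, the smallest this design allows, adjusted p = 0.0310 over 13 measures). In bulk RNA a change in the number of cells of a type and in RNA per cell cannot be told apart. Alpha-tubulin summed to 3169 TPM without PMA and 1667 TPM with it, and beta-tubulin to 1860 and 826 TPM. Between untreated and PMA libraries the median of all genes tested shifted by -0.14 on the log2(TPM + 1) scale and by -0.22 on the log2(TPM + 0.1) scale.

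Within beta-tubulin, TUBB went from 78.0% ± 2.3 of the pool without PMA to 59.9% ± 1.93 with it (SD, n = 4 each, exact permutation p = 0.0286). TUBB1 went from 0.0216% ± 0.0257 to 3.05% ± 1.10, and TUBB3 from 0.110% to 1.04%. TUBB4B (14.7% to 23.2%), TUBB6 (4.94% to 8.32%) and TUBB2A (2.05% to 4.37%) also took larger shares. For TUBB4B and TUBB6 this came with TPM levels that were no higher with PMA: TUBB6 had 75.9 and 75.2 TPM untreated and 70.7 and 72.3 TPM with PMA. TUBB2A had 33.6 and 38.1 TPM with PMA, above 30.9 and 31.7 TPM untreated. With both agents TUBB2A had 33.7 and 39.0 TPM, below 44.85 and 44.39 TPM with Ceefourin 2 alone. Within alpha-tubulin, TUBA1B went from 63.8% to 47.9%, while TUBA1C went from 28.5% to 35.7% and TUBA1A from 3.32% to 10.7%. The larger share of TUBA1C came with lower TPM, at 940 and 859 untreated and 576 and 675 with PMA.

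Of the 13 shares and sums, 12 had an exact permutation p of 0.0286 and an adjusted p of 0.0310. A lower share of 1 isotype raises the shares of others in its family, so these measures are not independent. The exception was TUBA4A, at 4.13% ± 0.736 of alpha-tubulin without PMA and 5.53% ± 0.992 with it (n = 4 each, exact permutation p = 0.0857). Exchanging libraries only within the same Ceefourin 2 status leaves too few arrangements for any p below 0.05. None of the 13 could pass there (exact permutation adjusted p = 0.0602 for the same 12), so that setting cannot decide.

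**Figure D3:**
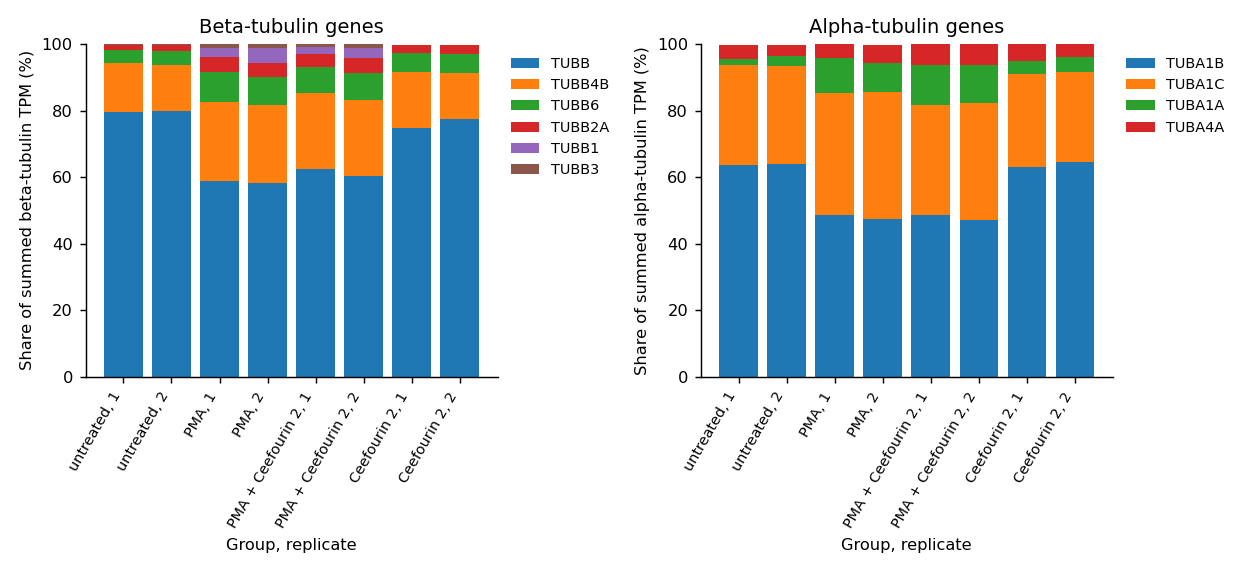
Share of the summed beta-tubulin (left) and alpha-tubulin (right) TPM held by each isotype in the 8 libraries, as stacked bars in percent. TUBB holds 74.9% to 79.9% of beta-tubulin in the libraries without PMA and 58.1% to 62.4% in those with PMA.

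The order of levels changed accordingly. With PMA, TUBA1B (767 and 841 TPM) was followed by TUBA1C (576 and 675 TPM) and only then by TUBB (452 and 502 TPM). TUBB1 reached 20.7 and 39.0 TPM, which overlapped TUBB2A at 33.6 and 38.1 TPM. With both agents TUBB1 had 15.5 and 26.6 TPM, below TUBB2A at 33.7 and 39.0 TPM in both libraries. TUBB1 was below TUBB6 in all 4 libraries with PMA, and TUBB remained the most abundant beta isotype in all 8 libraries.

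The study set PMA with and without Ceefourin 2 side by side, and there no tubulin isotype was called: 0 of 10, where 1.83% of all genes were called, 0.918% higher and 0.913% lower. At an unadjusted p below 0.05, edgeR found 2378 of the 17314 genes and no isotype, and DESeq2 also called no isotype. Without the filter on low counts 1 was called, TUBB1 (-0.48, adjusted p = 0.0142). TUBB1 stood at 46.7 and 83.5 CPM with both agents and 62.6 and 118 CPM with PMA, overlapping ranges with a difference of -0.47 (95% interval -1.55 to 0.62, edgeR adjusted p = 0.758), and this turned to 0.060 without PMA replicate 2.

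The intervals show what size of change these libraries could miss. For TUBA1B the 95% interval ran from -0.20 to 0.21 around 0.006, and for TUBB from -0.07 to 0.33 around 0.13. The interval of TUBB3 was wider, -0.52 to 0.38 around -0.07. TUBA1A (0.31, interval -0.08 to 0.70, edgeR adjusted p = 0.483) and TUBA4A (0.36, interval -0.13 to 0.86, adjusted p = 0.537) had the largest positive differences, and for both the libraries with Ceefourin 2 were above those without. These misses of the threshold do not show that the levels were equal.

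Without PMA, several isotypes differed between Ceefourin 2 and untreated libraries, with calls close to the threshold. Here 1.68% of all genes were called, and 3 of the 10 isotypes rose (TUBB3, TUBA1A and TUBB6), against 0.959% of all genes called higher, while none fell, against 0.722% called lower. TUBB3 went from 0.992 and 1.18 CPM to 2.46 and 3.53 CPM, a change of 1.44 (SE 0.23, edgeR adjusted p = 0.0277). TUBA1A went from 58.3 and 82.9 CPM to 121 and 149 CPM, a change of 0.94 (SE 0.17, edgeR adjusted p = 0.0427). TUBB6 went from 89.1 and 92.0 CPM to 132 and 121 CPM, a change of 0.48 (SE 0.09, edgeR adjusted p = 0.0433). For each of the 3 genes both Ceefourin 2 libraries were above both untreated libraries. Among cell markers in the same comparison, 9 of 13 erythroid genes fell and none rose. Of the 16 megakaryocyte and platelet genes tested, 4 rose and none fell. The part of such shifts in the tubulin values was not tested.

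These 3 calls were close to the threshold. TUBB6 was not called with any 1 of the 8 libraries left out (edgeR adjusted p from 0.0663 to 0.204). TUBA1A kept its call only without untreated replicate 2, and otherwise had adjusted p values from 0.0617 to 0.152 with 1 library left out. TUBB3 lost its call without untreated replicate 1 or 2, PMA replicate 1 or 2, or Ceefourin 2 replicate 2 (adjusted p from 0.0512 to 0.148). In the fit of the 2 groups alone, or with both replicate 1 libraries that had PMA left out, none was called. The directions held in every setting, and the fit with a replicate block called 5 isotypes, with TUBB2A (0.47, adjusted p = 0.00951) and TUBB1 (-2.94, adjusted p = 0.00261) added. DESeq2 called the same 5, with adjusted p values of 0.0173 for TUBB2A and 0.018 for TUBB1.

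TUBB1 was the one isotype that was much lower with Ceefourin 2 alone, although not called in the fit without the block. Its 0.109 and 0.354 CPM were below the 0.831 and 2.76 CPM of the untreated libraries, a difference of -2.99 (SE 0.83, 95% interval -4.90 to -1.08, edgeR adjusted p = 0.145). The counts behind it are 7 and 22 against 40 and 169, and the value ranged from -4.06 to -1.82 with single libraries left out. TUBB2A had 45.5 and 47.7 CPM against 31.7 and 35.5 CPM untreated, a difference of 0.47 (edgeR adjusted p = 0.134). The remaining isotypes did not pass: TUBB (-0.09), TUBB4B (0.06), TUBA1B (0.11), TUBA1C (-0.02) and TUBA4A (0.29).

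**Figure D4:**
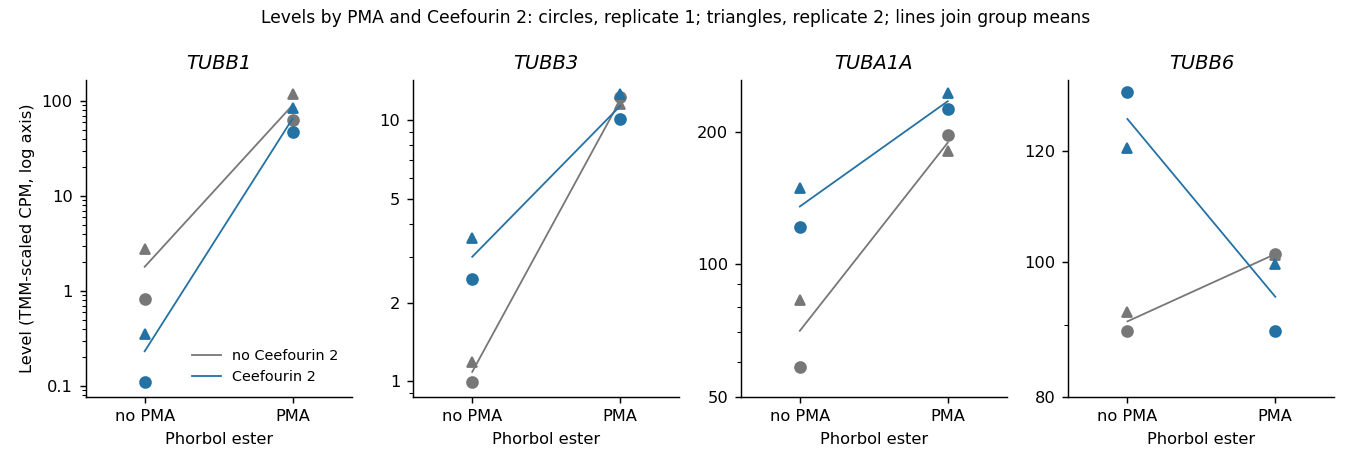
TMM-scaled CPM (log axes) of TUBB1, TUBB3, TUBA1A and TUBB6 without and with PMA, in grey without and in blue with Ceefourin 2; circles and triangles are replicates 1 and 2, and lines join group means. The groups lie apart without PMA (TUBB6 89.1 and 92.0 CPM against 132 and 121 CPM) and closer together with PMA.

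Whether the PMA effect differed with Ceefourin 2 was tested by an interaction term. In the fit without the block 2 of 17314 genes were called (0.0116%), and none of the isotypes, while 1234 genes had an unadjusted p below 0.05. The interaction was -1.51 (SE 0.30, edgeR adjusted p = 0.209) for TUBB3, -0.58 (SE 0.12, adjusted p = 0.220) for TUBB6 and 2.53 (SE 0.97, adjusted p = 0.627) for TUBB1. The fit with a replicate block called these 3, with adjusted p values of 0.0309, 0.0452 and 0.0258, and DESeq2 called TUBB3 (-1.54, adjusted p = 0.00189) and TUBB6 (-0.60, adjusted p = 0.00955). The other 7 were not called by either, with TUBA1A at -0.62 (edgeR adjusted p = 0.624). Without the filter on low counts, edgeR called TUBB1, TUBB3, TUBB6 and also TUBA1A (-0.64, adjusted p = 0.00847). The call of a difference in the PMA effect therefore depended on the model and the filter. Its direction for TUBB1, TUBB3 and TUBB6 did not, but its size for TUBB1 ranged from 0.14 to 3.59 over the alternatives.

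Genes that act on tubulin were read from lists, starting with PMA against untreated, where the background of 53.6% called applies. Of the other tubulin genes, 8 of 12 were tested, 2 rose and 6 fell, with a median of -0.62. Among them TUBB4A, a beta isotype of the nervous system, fell by 3.52 (edgeR adjusted p = 0.002) from only 1.13 ± 0.275 CPM (SD, n = 2), and TUBG1, the gamma-tubulin of microtubule-organising centres, fell by 0.40 (adjusted p = 0.00308). In the gamma-tubulin ring complex, which nucleates microtubules, 3 of 12 rose and 8 fell. MZT1, a small subunit that activates the complex, fell by 1.46 (edgeR adjusted p = 7.60e-06), and TUBGCP5 fell by 1.49 (adjusted p = 5.10e-05).

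Most tubulin folding genes fell with PMA. New tubulin chains are folded by prefoldin and the CCT chaperonin and assembled into dimers by tubulin cofactors, and of 24 tested rows for 23 such genes 15 fell and 3 rose (median -0.36). TBCA, the cofactor that holds beta-tubulin, fell by 0.84 (edgeR adjusted p = 5.14e-05). TCP1, a CCT subunit, fell by 0.73 (adjusted p = 0.000429), from 722 ± 58.4 CPM to 436 ± 20.1 CPM (SD, n = 2 each). In the autoregulation list of 8 genes, 4 fell and 1 rose: TTC5 fell by 0.76 (edgeR adjusted p = 0.00072) and CNOT7, a deadenylase of CCR4-NOT, by 0.65 (adjusted p = 0.00069). CNOT11, the CCR4-NOT subunit that links to TTC5 through SCAPER, rose by 0.56 (adjusted p = 0.00106), a call lost with limma on log2(TPM + 1) (adjusted p = 0.0655).

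Enzymes that modify tubulin moved in both directions, 7 of 19 higher and 7 lower. VASH1, a vasohibin that removes the terminal tyrosine of alpha-tubulin, went from 16.4 and 13.3 CPM to 75.8 and 66.9 CPM, a change of 2.26 (SE 0.14, edgeR adjusted p = 1.01e-05). KIAA0895L, the carboxypeptidase also known as MATCAP1 with the same activity, rose by 1.19 (adjusted p = 0.000557). TTL, the ligase that restores the tyrosine, differed by 0.26 and was not called (edgeR adjusted p = 0.126). TTLL3, a glycylase, rose by 2.30 (adjusted p = 0.000479), and TTLL12 fell by 0.55 (adjusted p = 0.00106).

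Microtubule-associated and plus-end proteins were also mixed, with 9 of 28 higher and 6 lower. MAP2, a microtubule stabiliser of neuronal dendrites, went from 0.0831 and 0.0817 CPM (4 and 5 counts) to 32.5 and 21.6 CPM, a change of 8.32 (SE 0.32, edgeR adjusted p = 1.89e-06). CLIP2, a plus-end protein, went from 8.42 and 7.69 CPM to 114 and 97.6 CPM, a change of 3.72 (SE 0.14, adjusted p = 1.82e-06). MAP1S rose by 1.94 (edgeR adjusted p = 8.97e-06) and MAPRE2, which tracks growing microtubule ends, by 0.78 (adjusted p = 0.000225). These 4 genes had the smallest p of the list, and none of the 6 lower ones is among them. The list's median was 0.07, and -0.09 on the log2(TPM + 1) scale. Its sum was lower with PMA, at 824 to 894 TPM against 1186 to 1277 TPM untreated.

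Dynein and dynactin, the motor and its activator, had 8 of 20 genes higher and none lower. The median of this list was 0.26, but 0.02 on the log2(TPM + 1) scale. The light chains DYNLT3 and DYNLT1 rose by 1.14 (edgeR adjusted p = 7.63e-05) and 0.97 (adjusted p = 0.00014). DYNC1I2, an intermediate chain, rose by 0.33 (adjusted p = 0.00759) but was not called without scaling factors (0.14, adjusted p = 0.175) or without both replicate 1 libraries that had PMA (adjusted p = 0.068). The heavy chain DYNC1H1 differed by 0.08 (adjusted p = 0.787) and was looked up after the list was read. The mitotic list went the other way, with 17 of 19 lower, none higher and a median of -0.98. KIF11, the kinesin that separates spindle poles, fell by 1.52 (edgeR adjusted p = 3.12e-05) and the proliferation marker MKI67 fell by 1.16 (adjusted p = 4.23e-05). Lower mitotic genes accompany lower TUBB and TUBA1B in the same libraries, and the part of cell division in the tubulin values was not tested.

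**Figure D5:**
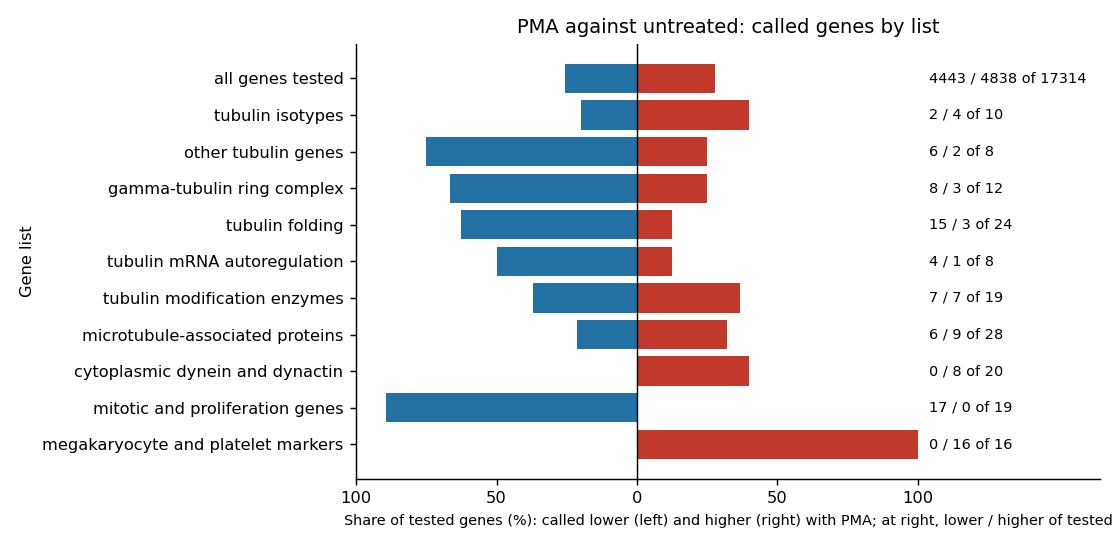
Share of the tested genes of each list called lower (left, blue) or higher (right, red) with PMA against untreated, in percent, with the counts at the right. The tubulin isotypes have 2 lower and 4 higher of 10, the mitotic list 17 lower of 19 and the megakaryocyte and platelet markers 16 higher of 16.

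In the comparisons of Ceefourin 2 the same lists were nearly without calls. Against PMA alone, where 1.83% of all genes were called, MAP7D1, a protein that recruits kinesin to microtubules, rose by 0.47 (edgeR adjusted p = 0.0439), and this call was lost with each of the 8 libraries left out (adjusted p from 0.058 to 0.285). Against untreated cells, CLIP2 rose by 0.71 with Ceefourin 2 (edgeR adjusted p = 0.0453), a call lost with each of the 8 libraries left out (adjusted p from 0.0641 to 0.256). No other gene of the 8 lists was called in either comparison.

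The genes whose pattern over the 8 libraries was nearest to each isotype were found by the Euclidean distance of centred log2 CPM among 9948 candidates. Those values share libraries and treatments, so they are a description with n = 8. Nearest to TUBB1 were MYLK, SLCO2B1 and LTBP1 (Pearson r 0.97 to 0.99), of which MYLK, a myosin light chain kinase, differed by 7.07 with PMA and -1.36 with Ceefourin 2. Nearest to TUBB were USP1, CDCA4 and CHST14, and nearest to TUBA1B were SAAL1, MTFP1 and NPM1. TUBB3 was nearest to CEP170B, ANTXR2 and HPSE, and TUBA1A to CHPF, ACSS2 and KLF6. For TUBB6 the nearest were RABGGTA, MPV17L2 and USP15, at lower correlations of 0.85 to 0.90. The remaining isotypes had RBM42, SCAND1 and UHRF1BP1L (TUBB2A), PPP1R3D, TAF5L and LLPH (TUBB4B), HAUS2, MRPL49 and TDG (TUBA1C), and CCNE2, AL669918.1 and TMEM38B (TUBA4A) as nearest genes. Among the isotypes themselves, TUBB and TUBA1B had r = 0.99 and TUBB3 and TUBA1A r = 0.96.

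The upstream windows of the isotypes were searched because TUBB1 and TUBB3 were much higher with PMA, and phorbol esters are known to activate AP-1, a factor that binds TGAGTCA. The 15 RefSeq windows for the 10 genes (GRCh38.p14, 250 bases before to 50 after a start) held 1 such motif on either strand, in TUBB3, against 4.95% of 35116 windows of all genes. TUBB3 has a further window (89923092 to 89923391) without this motif, and which start these cells used was not tested. The motif is shown in capitals with its flanks, 21 bases before the transcript start of its own window, at chr16:89921894-89921920 on the plus strand.
TUBB3: gaccggacggTGAGTCAgccttaagcc
The CCAAT box, found in 34.6% of all windows on either strand, was in 1 or more windows of TUBB, TUBB3, TUBB4B, TUBB6, TUBA1A and TUBA1C. Of these, TUBB, TUBB3, TUBB6 and TUBA1C have more than 1 window, so a count of genes cannot be set against that share of windows. TUBB2A had a TATAAA box 30 bases before its start, a string found in 11.5% of all windows on either strand. GATA motifs were in the TUBB4B window alone, against 25% of all windows, and E2F motifs in no isotype, against 2.27%. A match is a string of letters in the window and nothing more, and the absence of one says nothing about the factor.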

How the data were processed

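Stranded mRNA libraries of MEG-01 cells were made and sequenced in 4 groups of 2. Per the submitters' processing notes, STAR 2.7 and RSEM 1.3.1 were used with hg38. Of the annotation used, the release is not stated in them. The authors deposited RSEM expected counts per gene, which are not normalized, and TPM values per gene, which have nearly the same sum in every library per the file headers and values.

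Expected counts were rounded and tested in edgeR 4.0.16 (R 4.3.3) after filterByExpr and TMM scaling (factors 0.92 to 1.083), in 1 quasi-likelihood fit of 8 libraries with a mean per group. Residual degrees of freedom were 4, plus 3.95 from sharing across genes, with a common biological coefficient of variation of 13.6%. A gene was called, and is said to have risen or fallen, at a Benjamini-Hochberg adjusted p below 0.05 over all 17314 genes tested. Standard errors were derived from the log2 fold change and the F statistic of the same fit, and 95% intervals are symmetric t intervals built on them. Both are approximate, above all for TUBB1 at its low counts without PMA. Unless CPM or TPM is named, differences are log2 fold changes. TPM was used to compare genes and to form shares of the alpha and beta pools, over 18 genes, which were compared between 4 libraries with and 4 without PMA by an exact permutation test.

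Alternatives were other scalings and filters, DESeq2 1.42.0, limma 3.58.1 on log2(TPM + 1) and log2(TPM + 0.1), fits of 2 groups, left-out libraries and a replicate block. The labels number replicates 1 and 2 in each group without saying what the number marks. The difference of replicate 2 from replicate 1 correlated between groups at 0.14 to 0.36 in all 6 pairs of groups over 17314 genes, so blocked values are given where they change a call. This pairing rests on the data, not on the design.

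The isotypes and gene lists were chosen with earlier results of these data known. All isotypes were named in every comparison, and at most 4 called genes of a list with the smallest p, plus the 3 nearest genes of each isotype with a mean of at least 5 CPM; TTL and DYNC1H1 were added after their values were seen. Lists covered other tubulins, the gamma-tubulin ring complex, folding, autoregulation, modification enzymes, microtubule-associated proteins, dynein and dynactin, mitosis and 6 sets of cell markers. The scripts were tested on simulated data. Sequences are from GENCODE release 29 and RefSeq. The 3′ coding ends of the alpha isotypes are not reported here.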

Additional observations from a re-analysis of the deposited data

Results flagged for a closer look

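For 2 isotypes an effect on TMM-scaled CPM pointed in opposite directions in every library depending on the other agent. The share of all genes tested with such a reversal was not counted, so these 2 are only a description. TUBB6 was higher with PMA than untreated (101 and 101 CPM against 89.1 and 92.0 CPM) but lower with PMA plus Ceefourin 2 than with Ceefourin 2 (89.1 and 99.6 CPM against 132 and 121 CPM). In TPM, TUBB6 was instead lower with PMA (70.7 and 72.3) than untreated (75.9 and 75.2), so this reversal depended on the scaling. The Ceefourin 2 difference of TUBB6 was 0.48 without PMA and -0.10 with PMA. The test of both is the same interaction, -0.58 (edgeR adjusted p = 0.220, and 0.0452 with a replicate block). For TUBB the Ceefourin 2 difference was -0.09 without PMA and 0.13 with PMA, an interaction of 0.22 (edgeR adjusted p = 0.854, and 0.263 with a replicate block). In TPM the TUBB values with Ceefourin 2 alone (1462 and 1367) overlapped those of untreated libraries (1566 and 1407). The TUBB reversal therefore also depended on the scaling.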

How the results depend on the processing

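The counts of isotypes called for PMA stayed within 1.5 times of 6 without and 7 with Ceefourin 2. The exact permutation tests passed for 12 of 13 shares and sums. With exchange within Ceefourin 2 status 0 passed, but the few arrangements there allow no p below 0.05. For Ceefourin 2 against untreated, 3 isotypes were called, with 5 under no filter, DESeq2 and the replicate block, 0 with the 2 groups alone or without both replicate 1 libraries with PMA, and 0 to 1 with 1 library left out. All genes called there went from 291 to 1174 (no filter), 837 (DESeq2), 31 (2 groups alone), 1430 (replicate block), 41 (without both) and 30 to 188 (1 left out). For PMA plus Ceefourin 2 against PMA, 0 isotypes became 1 without a filter. All genes called went from 317 to 1211 (no filter), 799 (DESeq2), 1482 (replicate block), 1 (without both), 180 (limma, log2(TPM + 0.1)) and 21 to 324 (1 left out). For the interaction, 0 isotypes became 4 (no filter), 2 (DESeq2) and 3 (replicate block). All genes called went from 2 to 5 (RLE or no scaling), 414 (no filter), 0 (1 CPM filter), 210 (DESeq2), 247 (replicate block), 0 (without both), 19 and 8 (limma, log2(TPM + 1) and log2(TPM + 0.1)) and 0 to 2 (1 left out). The cause was not tested. Beyond these and the values in the report, the replicate block changed no call of an isotype.

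Some uncalled differences near 0 changed sign. TUBB6 with PMA was -0.025 without scaling and -0.079 and -0.080 with limma. TUBB2A with PMA in Ceefourin 2 cells was -0.0057 (RLE), -0.21 (no scaling), -0.012 (no filter), -0.0054 (DESeq2), -0.011 (2 groups alone), -0.0047 (replicate block), and -0.29 and -0.30 (limma, adjusted p = 0.0442 and 0.0454). For PMA plus Ceefourin 2 against PMA, TUBA1B was -0.024 (no scaling), -0.00067 (no filter), -0.0017 (2 groups alone) and -0.018 (both limma scales). TUBB4B was -0.020 (no scaling), -0.0076 (without both) and -0.014 (both limma scales), and TUBB3 was 0.13 (without both). TUBA1C with Ceefourin 2 was 0.010 on both limma scales, and the TUBA4A interaction was -0.044 (without both).

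Signs also varied with 1 library left out. For PMA plus Ceefourin 2 against PMA the ranges were -0.95 to 0.060 for TUBB1, -0.12 to 0.18 for TUBB2A, -0.24 to 0.081 for TUBB3, -0.062 to 0.085 for TUBB4B and -0.057 to 0.070 for TUBA1B. For PMA in Ceefourin 2 cells they were -0.16 to 0.15 for TUBB2A and -0.45 to 0.079 for TUBA4A. With Ceefourin 2 alone they were -0.11 to 0.23 for TUBB4B and -0.072 to 0.040 for TUBA1C. For the interaction they were -0.22 to 0.11 for TUBB4B, -0.23 to 0.0093 for TUBA1C and -0.17 to 0.34 for TUBA4A. Where a group was left with 1 library, that library was assumed to vary like the other groups. With 2 libraries a group, and 7 to 169 counts of TUBB1 without PMA, small changes could not be resolved.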
